A study of Mus musculus with 8 samples.

Results

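Ltf encodes lactoferrin, an iron-binding protein of milk, tears and airway fluid, and it is described here together with 9 other genes whose proteins are secreted or made by the surface epithelium and glands of the airway. The set holds 10 genes, namely Ltf, Bpifa1, Bpifb1, Reg3g, Scgb1a1, Scgb3a1, Scgb3a2, Muc5b, Tff2 and Cyp2f2. They were found by gene symbol in a count table that lists 32849 symbols, of which 22721 had a count. The genes were selected on their levels in these same libraries, MGL KO against WT, so their levels in the 8 libraries are given as a description without a test. The libraries were made from frozen esophagi of healthy mice, 4 from MGL KO and 4 from WT animals. MGL is monoacylglycerol lipase, which breaks down the endocannabinoid 2-arachidonoylglycerol, and the comparison was made to ask whether the loss of MGL by itself alters the esophageal transcriptome. MGL KO mice lack the enzyme in all tissues and were bred in-house alongside WT littermates. No treatment was given. The study used male and female mice and gives different age ranges for different measurements, and the labels give neither age nor sex for a library. The labels also do not state that each library is a different animal, so p-values measure the spread between these samples.

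The epithelium of the conducting airway holds club cells, goblet cells and ciliated cells, and submucosal glands open onto it. Club cells secrete secretoglobins and carry cytochromes that convert foreign compounds, goblet and gland cells release mucins and trefoil peptides, and both add antimicrobial proteins to the fluid that lines the airway. The esophagus, in contrast, is lined by stratified squamous epithelium, and in the mouse its wall holds no submucosal glands and much skeletal muscle.

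A single library stood apart from the other 7. All 10 genes had their highest level in MGL KO replicate 4, where they took 1.36% of all counts (Wilson 95% interval 1.35 to 1.36), while they took 0.0207% or less in each other library. The total count lay between 13479069 and 17090152 per library, with 16300482 in MGL KO replicate 4. Levels are given as normalized CPM, counts divided by library sizes that were scaled with TMM factors, a scale on which a gene with no count may have had up to 3 counts, or 0.167 to 0.271 CPM. Intervals and limits cover counting error only. The targeted gene Mgll fitted its label in every library, with 12.6, 16.0, 13.1 and 13.2 CPM in MGL KO replicates 1 to 4 and 83.3, 66.6, 88.3 and 86.7 CPM in WT replicates 1 to 4. Markers of the labelled tissue were present in all libraries. The 7 squamous epithelial markers summed to 8741 CPM in MGL KO replicate 4 and to 4000 to 16077 CPM in the others, and the 6 muscle markers summed to 22497 CPM in MGL KO replicate 4, below the 25466 to 53520 CPM of the others. In such bulk tissue, fewer cells of a type and less RNA per cell cannot be told apart.

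The stretches upstream of the genes Bpifa1, Scgb1a1 and Ltf, the highest of the set in MGL KO replicate 4, are shown as a description. Each is the 250 bases before the annotated start on the gene's own strand in GRCm39 (GENCODE mouse release M39), at chr2:153984550-153984799 on the forward strand, chr19:9065327-9065576 on the reverse strand and chr9:110848089-110848338 on the forward strand. Capitals mark matches, on either strand, to CTCAAG of NKX2-1, TNTTTAC of the FOXA factors or TTGCNNAA of the C/EBP factors, transcription factors known from airway and secretory epithelium.
Bpifa1: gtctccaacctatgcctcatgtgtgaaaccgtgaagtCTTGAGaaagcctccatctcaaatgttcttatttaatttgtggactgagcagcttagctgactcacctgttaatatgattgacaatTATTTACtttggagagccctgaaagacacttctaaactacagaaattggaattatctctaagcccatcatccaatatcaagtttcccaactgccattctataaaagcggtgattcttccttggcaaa
Scgb1a1: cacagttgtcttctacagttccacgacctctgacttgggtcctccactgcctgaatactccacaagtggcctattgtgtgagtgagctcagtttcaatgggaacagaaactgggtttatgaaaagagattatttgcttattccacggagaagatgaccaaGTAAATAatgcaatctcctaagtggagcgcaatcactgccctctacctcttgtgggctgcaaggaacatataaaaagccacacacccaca
Ltf: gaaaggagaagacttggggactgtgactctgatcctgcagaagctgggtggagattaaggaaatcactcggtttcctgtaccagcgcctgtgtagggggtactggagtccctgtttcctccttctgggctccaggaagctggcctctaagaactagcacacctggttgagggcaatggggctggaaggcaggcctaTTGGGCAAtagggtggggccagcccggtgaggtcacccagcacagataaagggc
The Bpifa1 stretch held an NKX2-1 match that begins 213 bases and a FOXA match that begins 127 bases before the start, the Scgb1a1 stretch a FOXA match at 90 bases and the Ltf stretch a C/EBP match at 54 bases. Of the 9 genes searched, Cyp2f2 included and Scgb3a2 not, 4 held the NKX2-1 letters, 2 the FOXA letters and 2 the C/EBP letters. The shares among 21074 stretches of the same length before other gene starts were 14.8%, 10.3% and 9.35%, respectively. No motif was held by all of the genes searched, and a match describes letters only. The part of these stretches in the levels of the genes was not tested.

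Ltf had 15.0, 1.35, 1.29 and 1973 CPM in MGL KO replicates 1 to 4 and 1.00, 0.400, 1.25 and 0.326 CPM in WT replicates 1 to 4. It was the 31st most counted gene of MGL KO replicate 4, with 35104 counts, against 245 in MGL KO replicate 1. The level in MGL KO replicate 4 was 132-fold (95% interval of the count ratio 116 to 150) that in MGL KO replicate 1, the next highest. All MGL KO libraries exceeded all WT libraries, which held for 1 of the 10 genes and for 2.72% of the genes tested. The order between groups was narrow at its lower end. MGL KO replicates 2 and 3 had 15 and 21 counts, with Poisson 95% intervals of 0.758 to 2.23 and 0.802 to 1.98 CPM, and the WT replicate nearest to them had 19 counts with an interval of 0.752 to 1.95 CPM. These libraries were not separated beyond counting error. Ltf lies at chr9:110848339-110871835 on the forward strand of GRCm39 and overlaps no other annotated gene.

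Lactoferrin is also a protein of neutrophil granules. The 12 granule genes measured summed to 16.1 CPM in MGL KO replicate 4, within the 5.86 to 19.2 CPM of the other libraries but above the other MGL KO libraries, which reached 7.47 CPM, and 4 of the 12 were highest there. S100a8 had 3.48 CPM in MGL KO replicate 4 against at most 1.95 CPM, and Camp had 1.52 CPM against 1.05 to 2.89 CPM. Mmp9 had 4.78 CPM there against 10.6 CPM in WT replicate 1, and S100a9 had 4.27 CPM against 1.53 to 4.82 CPM elsewhere. Lcn2, Cd177 and Pglyrp1, also known from neutrophils, are not among the 12. They had 227, 555 and 175 CPM in MGL KO replicate 4 against at most 9.71, 2.57 and 2.27 CPM elsewhere. Cd177 and Pglyrp1 were named after their values were seen. The part of neutrophils in the level of Ltf was not tested. Among the other members of the transferrin family, Trf, which carries iron in plasma, had 191 CPM in MGL KO replicate 4 and 10.5 to 154 CPM in the others, and the receptor gene Tfrc had 68.6 CPM against 82.3 to 127 CPM. Meltf had 0.618 CPM in MGL KO replicate 4 and no count in the other 7 libraries. Of these 4 relatives, 0 had at least 10 CPM and 10 times their level elsewhere in MGL KO replicate 4.

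Bpifa1 and Bpifb1 encode secreted proteins of the BPI fold, which bind lipids and bacterial surfaces in airway fluid. Bpifa1 was the highest of the 10 genes in CPM, with 12.5, 0.180, 0.0617 and 2568 CPM in MGL KO replicates 1 to 4 and 0, 0.171, 0 and 0.130 CPM in WT replicates 1 to 4. Its 45685 counts made it the 24th most counted gene of MGL KO replicate 4, while the 6 libraries other than MGL KO replicates 1 and 4 had 3 counts or fewer. Bpifb1 had 5.33, 0.271, 0.185 and 1254 CPM in the MGL KO and 0.112, 0.457, 0.263 and 0 CPM in the WT libraries. Both genes were high in MGL KO replicate 4 and next in MGL KO replicate 1, and the remaining MGL KO libraries overlapped the WT libraries. The genes lie on the same strand of chromosome 2, at chr2:153984800-153991139 and chr2:154032738-154062289. Other BPI-fold genes within 100 kb of them stayed at far lower levels. Bpifa3 and Bpifb5 were also highest in MGL KO replicate 4, at 0.674 and 2.02 CPM against at most 0.0612 and 0.285 CPM elsewhere. Bpifa5 was highest in MGL KO replicate 3 at 4.44 CPM, and Bpifb9a and Bpifb9b had no count. Of the 13 other BPI-fold genes listed, Lbp, which presents bacterial lipopolysaccharide, was the most expressed, with 120 CPM in MGL KO replicate 4 against 5.46 to 12.5 CPM.

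Reg3g encodes a C-type lectin that kills Gram-positive bacteria at mucosal surfaces. It had 4.16, 0, 0 and 1295 CPM in MGL KO replicates 1 to 4 and 0.112, 0.0571, 0.0657 and 0.0652 CPM in WT replicates 1 to 4. No library other than MGL KO replicates 1 and 4 had more than 2 counts, so 23038 counts stood against at most 2 in 6 libraries. The Reg genes beside it on chromosome 6 stayed at far lower levels. Reg3b, Reg3a and Reg2 had no count in MGL KO replicate 4 and Reg3d had 0.112 CPM, while Reg1 had 1.01 CPM there, or 18 counts, against at most 0.0657 CPM elsewhere. The 6 other Reg lectins together reached 1.12 CPM in MGL KO replicate 4 and at most 0.112 CPM elsewhere.

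Among the secretoglobins, small secreted proteins of club and goblet cells, Scgb1a1 encodes the main protein of club cells. It had 18.9, 0.271, 0.678 and 2222 CPM in MGL KO replicates 1 to 4 and 0.167, 1.88, 0 and 0.456 CPM in WT replicates 1 to 4. WT replicate 2 followed them with 33 counts, above MGL KO replicates 2 and 3 with 3 and 11. Scgb3a1, a secretoglobin of the larger airways, had 9.92, 0.0902, 0.0617 and 1047 CPM in the MGL KO and 0.0558, 0.285, 0 and 0.261 CPM in the WT libraries. Scgb3a2, which is made in club cells, had 4.23, 0, 0 and 620 CPM in the MGL KO libraries and was counted in 1 WT library, replicate 2, at 0.285 CPM. For all 3 secretoglobins the groups overlapped once MGL KO replicates 1 and 4 were set aside. Of 7 other secretoglobin genes, 6 had no count in any library, and Scgb1c1 had 0.225 CPM in MGL KO replicate 4.

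Muc5b and Tff2 belong to mucus. Muc5b, a gel-forming mucin of airway glands and secretory cells, had 1.59, 0, 0.370 and 590 CPM in MGL KO replicates 1 to 4 and 0.223, 0.342, 0.0657 and 0.587 CPM in WT replicates 1 to 4. Its level in MGL KO replicate 4 was 370-fold that in the next library, the largest ratio of the set, with an interval of 253 to 567 because the next library had 26 counts. Tff2, a trefoil peptide secreted with mucins, was the lowest of the set in MGL KO replicate 4, with 0.367, 0, 0 and 88.7 CPM in the MGL KO and 0.446, 0.228, 0.197 and 0 CPM in the WT libraries. It was the 1 member other than Cyp2f2 for which MGL KO replicate 1 was not second, as WT replicate 1 had 8 counts and MGL KO replicate 1 had 6. The gene for the gel-forming mucin Muc5ac, next to Muc5b on chromosome 7, had 47.0 CPM in MGL KO replicate 4 and at most 0.261 CPM in the others. Tff1, within 100 kb of Tff2, had no count in any library, and Tff3, also there, had none in MGL KO replicate 4. Over all members, 39 genes that are not members lay within 100 kb, of which 6 had no count and 1, Muc5ac, had at least 10 CPM and 10 times its highest level elsewhere in MGL KO replicate 4.

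Cyp2f2 encodes a cytochrome P450 of club cells and differed from the other 9 genes in that it was well counted in every library. It had 124, 78.3, 103 and 785 CPM in MGL KO replicates 1 to 4 and 153, 198, 129 and 173 CPM in WT replicates 1 to 4. MGL KO replicate 4 exceeded the next library, WT replicate 2, by 3.96-fold (interval 3.82 to 4.12). The other 3 MGL KO libraries lay below all WT libraries. Cyp2f2 made up 97.3% to 99.0% of the counts of the set in MGL KO replicates 2 and 3 and the WT libraries, 63.3% in MGL KO replicate 1 and 6.31% in MGL KO replicate 4. Its locus, chr7:26819322-26833090, overlaps the annotated gene Gm15883, and the use of strand in counting is not given in the sources used here.

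**Figure D1:**
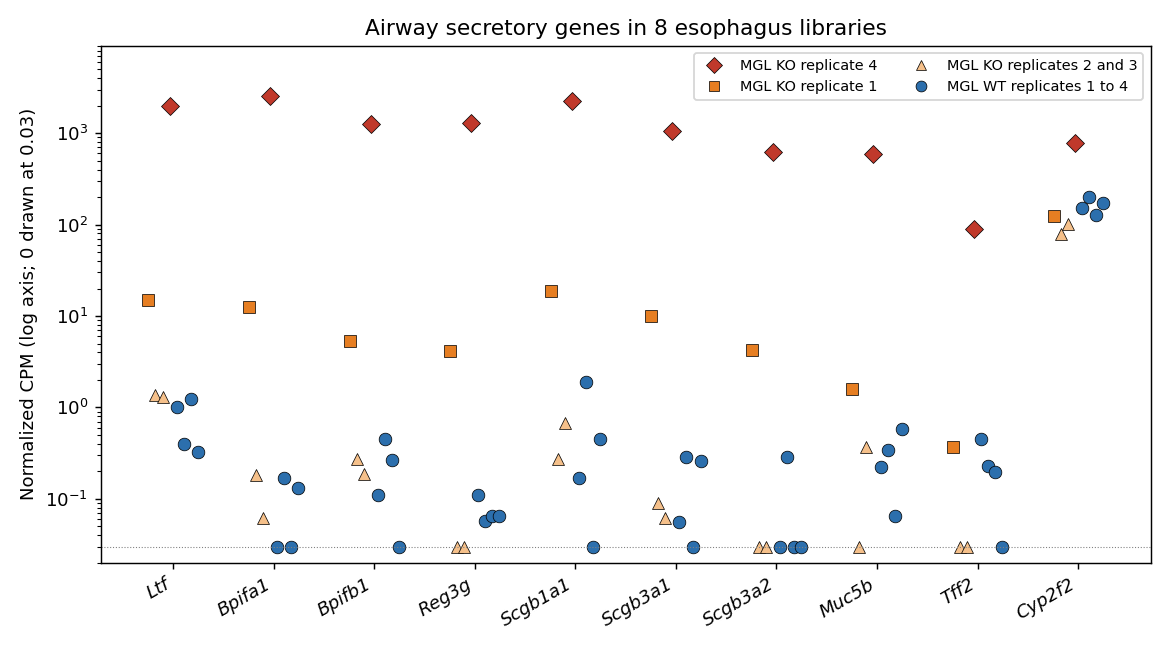
Normalized CPM (log axis, 0 drawn at 0.03) of the 10 genes, with 1 point per library for 4 MGL KO and 4 WT libraries. MGL KO replicate 4 is the top point for each gene, MGL KO replicate 1 is second for 8 of the 10, and Cyp2f2 is the 1 gene above 70 CPM in all libraries.

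Over the set, MGL KO replicate 4 exceeded the highest other library by 3.96-fold to 370-fold, with a median of 173-fold. The lowest ratio among the 9 genes other than Cyp2f2 was 105.6-fold. Genes with at least 10 CPM in MGL KO replicate 4 and at least 10 times the level of every other library numbered 258, or 1.14% of all genes with a count, and included 9 of the 10 members. By the same rule WT replicate 1 had 33 such genes, MGL KO replicate 2 had 4 and the remaining 5 libraries had 0. The members were chosen by this contrast, so nothing is read from these shares. Per kilobase of the canonical transcript, Scgb1a1 had the highest level in MGL KO replicate 4, with 4629 CPM per kb, followed by Bpifa1 at 2322, Scgb3a1 at 1799 and Reg3g at 1664 CPM per kb. Bpifb1, Ltf and Scgb3a2 lay close together at 738, 714 and 705 CPM per kb, and Cyp2f2 at 417, Tff2 at 150 and Muc5b at 39.4 CPM per kb came last.

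Few of these genes met the count filter. The filter kept 14864 genes and asked for counts in about as many libraries as a group holds, and 3 of the 10 members passed, namely Ltf, Scgb1a1 and Cyp2f2. The other 7 were left out with up to 45685 counts in MGL KO replicate 4. The fitted log2 fold change, MGL KO minus WT, was 9.37 (standard error 2.67) for Ltf, 9.75 (2.93) for Scgb1a1 and 0.74 (0.69) for Cyp2f2. Of all tested genes, 0.0471% passed an adjusted p of 0.05 in edgeR's quasi-likelihood test. None of the 3 members did, 0 of 3, with 2 of 3 under an unadjusted 0.05, as were 8.65% of all tested genes. In edgeR's exact test without the filter, which called 0.185% of the genes with a count, 1 of 10 members was called, Ltf. As the members were chosen by this contrast, these counts are given as a description.

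The values rested on 2 libraries. Without MGL KO replicate 4 the log2 fold change was 2.98 (standard error 0.93) for Ltf, 3.38 (1.45) for Scgb1a1 and -0.68 (0.20) for Cyp2f2. Without MGL KO replicates 1 and 4, an alternative chosen after the data were seen, it was 0.83 for Ltf, -0.36 for Scgb1a1 and -0.84 for Cyp2f2. The mean level of Ltf, 498 ± 984 CPM (SD, n = 4) in MGL KO against 0.745 ± 0.453 CPM (SD, n = 4) in WT esophagi, thus had an SD above its mean in the MGL KO group.

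MGL KO replicate 1 held 8 of the genes at a low level, above all WT libraries, with Tff2 within the WT range. Without Cyp2f2, the members summed to 72.0 CPM in MGL KO replicate 1, 11657 CPM in MGL KO replicate 4 and 1.83 to 4.11 CPM in the other 6 libraries. The mix of the 9 genes was alike in outline and differed in detail. Scgb1a1 made up 26.3% (Wilson 95% interval 23.8 to 28.9) of the summed counts in MGL KO replicate 1 and 19.1% (18.9 to 19.2) in MGL KO replicate 4, and Scgb3a1 made up 13.8% (11.9 to 15.9) and 8.98% (8.86 to 9.11). Reg3g made up 5.78% (4.59 to 7.27) and 11.1% (10.97 to 11.24), and Muc5b 2.21% (1.51 to 3.22) and 5.06% (4.97 to 5.15). Ltf made up 20.8% (18.6 to 23.2) and 16.9% (16.8 to 17.1). Ltf, Scgb1a1 and Scgb3a1 thus took a larger share in replicate 1 and Reg3g, Muc5b and the BPI-fold pair a larger one in replicate 4, while the intervals of Scgb3a2 and Tff2 overlapped. These are 2 libraries, and the intervals compare the libraries only.

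Markers of neighbouring cell types moved with the set in part. Of 14 markers of airway ciliated cells, 11 had at least 10 CPM and 10 times their level elsewhere in MGL KO replicate 4. Foxj1, the regulator of motile cilia, had 228 CPM against at most 1.65 CPM, and Sec14l3 had 584 CPM in MGL KO replicate 4, 2.02 CPM in MGL KO replicate 1 and no count in the other 6 libraries. The summed ciliated list, 2120 CPM against 418 to 907 CPM, was carried in the other libraries by Tppp3, which had 768 to 886 CPM in the MGL KO and 405 to 712 CPM in the WT libraries. All 5 markers of simple epithelium were highest in MGL KO replicate 4, and 1 of the 5 met the same rule. Krt8 had 129 CPM there against 0.587 to 43.6 CPM, with MGL KO replicate 2 next. Krt19 had 158 CPM against 1.05 to 22.7 CPM, with WT replicate 1 next. The part of these cell types in the levels of the secretory genes was not tested.

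Alveolar markers differed between MGL KO replicates 1 and 4, in both directions. The surfactant protein genes Sftpd and Sftpa1, which are also expressed in airway cells, were at 121 and 70.3 CPM in MGL KO replicate 4 and at 3.00 and 3.61 CPM in MGL KO replicate 1. Sftpc, the defining gene of alveolar type 2 cells, went the other way, with 25.6 CPM in MGL KO replicate 1, 3.88 CPM in MGL KO replicate 4 and at most 0.196 CPM in the other 6 libraries. Abca3, a lipid transporter of type 2 cells, had 49.3 CPM in MGL KO replicate 4, 24.9 CPM in MGL KO replicate 1 and 18.1 to 34.3 CPM in the others. The remaining 5 markers are named after their values were seen, and they did not run one way. Slc34a2 had 142 counts in MGL KO replicate 4 and 27 in MGL KO replicate 1, and Napsa had 3.09 and 1.53 CPM with its highest level, 5.08 CPM, in WT replicate 1. Sftpb had 2 counts in MGL KO replicate 4 and 42 in MGL KO replicate 1, and Lamp3 had 10 and 11. Ager, a gene of alveolar type 1 cells, was counted in every library, with 12 counts in MGL KO replicate 4, 78 in MGL KO replicate 1 and 18 to 52 in the others. The 9 alveolar markers summed to 68.3 CPM in MGL KO replicate 1, 257 CPM in MGL KO replicate 4 and 21.3 to 42.2 CPM in the other 6. The markers of salivary gland (32.1 CPM in MGL KO replicate 4, 18.6 to 34.2 CPM elsewhere), gastric epithelium (2.98 against 2.67 to 10.8 CPM) and thyroid (3.82 against 0.526 to 6.32 CPM) lay within the range of the other libraries, and those of cartilage just above it (4.33 against 1.35 to 2.96 CPM).

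**Figure D2:**
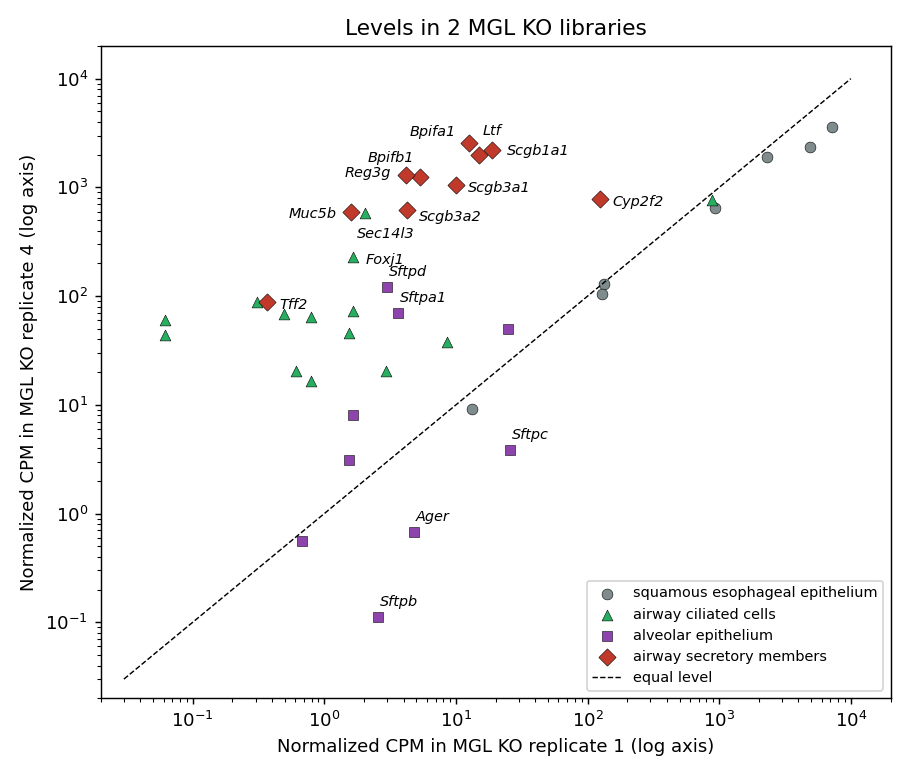
Normalized CPM in MGL KO replicate 4 against MGL KO replicate 1 (both log axes), 1 point per gene, for the secretory genes and the markers of squamous, ciliated and alveolar epithelium, with a dashed line of equal level. The secretory genes and all but 1 ciliated marker lie above the line, squamous markers lie near or below it, and of the alveolar markers Sftpc, Sftpb, Ager and, narrowly, Lamp3 lie below it and the other 5 above.

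Other genes of the airway surface and glands showed which products were shared. Among 9 other goblet and mucus genes, 7 were highest in MGL KO replicate 4 and 6 reached 10 times their level elsewhere, and their sum was 433 CPM against 3.07 to 14.2 CPM. Muc4, a membrane mucin, had 151 CPM against 1.11 to 5.72 CPM, Clca1, a secreted protein of goblet cells, had 83.1 CPM against 0.326 to 1.71 CPM, and Muc16 had 57.9 CPM against 0 to 8.98 CPM. The 9 measured gland genes summed to 716 CPM against 0.394 to 12.6 CPM, with 3 of the 9 highest in MGL KO replicate 4, 2 at no count in any library and 4 (Dcpp1, Dcpp2, Dcpp3 and Smgc, named after their values were seen) at no count in MGL KO replicate 4. Pigr, the receptor that carries immunoglobulin A across epithelium, made up most of this at 542 CPM against at most 2.88 CPM, Dmbt1 had 150 CPM against at most 0.551 CPM, and Aqp5 had 22.8 CPM against at most 2.40 CPM. Bhlha15, a regulator of secretory cells, had its highest level in WT replicate 1, with 9.20 CPM against 0.899 CPM in MGL KO replicate 4.

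Among 12 other mucosal antimicrobial genes, 4 were highest in MGL KO replicate 4 and their sum was 2056 CPM against 200 to 992 CPM. Wfdc2, a protease inhibitor of airway secretions, had 385 CPM against 20.6 to 36.7 CPM, and its MGL KO libraries all exceeded its WT libraries, as for 2.72% of the genes tested. Lcn2, which binds bacterial siderophores, had 227 CPM against 0.723 to 9.71 CPM, and Lyz2, a lysozyme also made by macrophages, had 1398 CPM against 146 to 729 CPM. Saa3, an acute phase protein, went the other way, with 1.35, 0.0902, 1.11 and 3.03 CPM in the MGL KO and 155, 50.1, 2.96 and 71.5 CPM in the WT libraries. Its relative Saa2, named after its values were seen, had no count in the MGL KO libraries and 0.0657 to 4.89 CPM in the WT libraries. The regulators Nkx2-1, which directs lung and thyroid identity, and Elf3 (named after its values were seen) and Foxa1, regulators of epithelial genes, had 29.3, 51.1 and 82.1 CPM in MGL KO replicate 4. Nkx2-1 had 1.29 CPM in MGL KO replicate 1 and no count in the other 6, whereas Elf3 and Foxa1 had 5.46 to 11.4 CPM and 8.93 to 24.9 CPM elsewhere. Sox2 and Ehf, at 108 and 93.4 CPM in MGL KO replicate 4, lay 1.22-fold above the highest other library, and Xbp1, at 153 CPM, lay below WT replicate 1 at 194 CPM.

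Over the 19 lists of related genes and cell type markers, 70 genes that are not members were tested and 0 passed an adjusted p of 0.05 in edgeR's quasi-likelihood test. At an unadjusted p under 0.05 there were 17 higher and 1 lower, beside the 8.65% of all tested genes. The exact tests called 1 listed gene each, Saa3, beside 0.431% of all genes with the filter and 0.185% without it, and DESeq2 called 2, Saa3 and Tppp3, beside 0.935% of the genes to which it gave an adjusted p. Their median log2 fold change was 0.35, with 53 of 70 above 0, beside 0.02 and 53.0% over all tested genes. The same library, MGL KO replicate 4, enters all of these values.

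**Figure D3:**
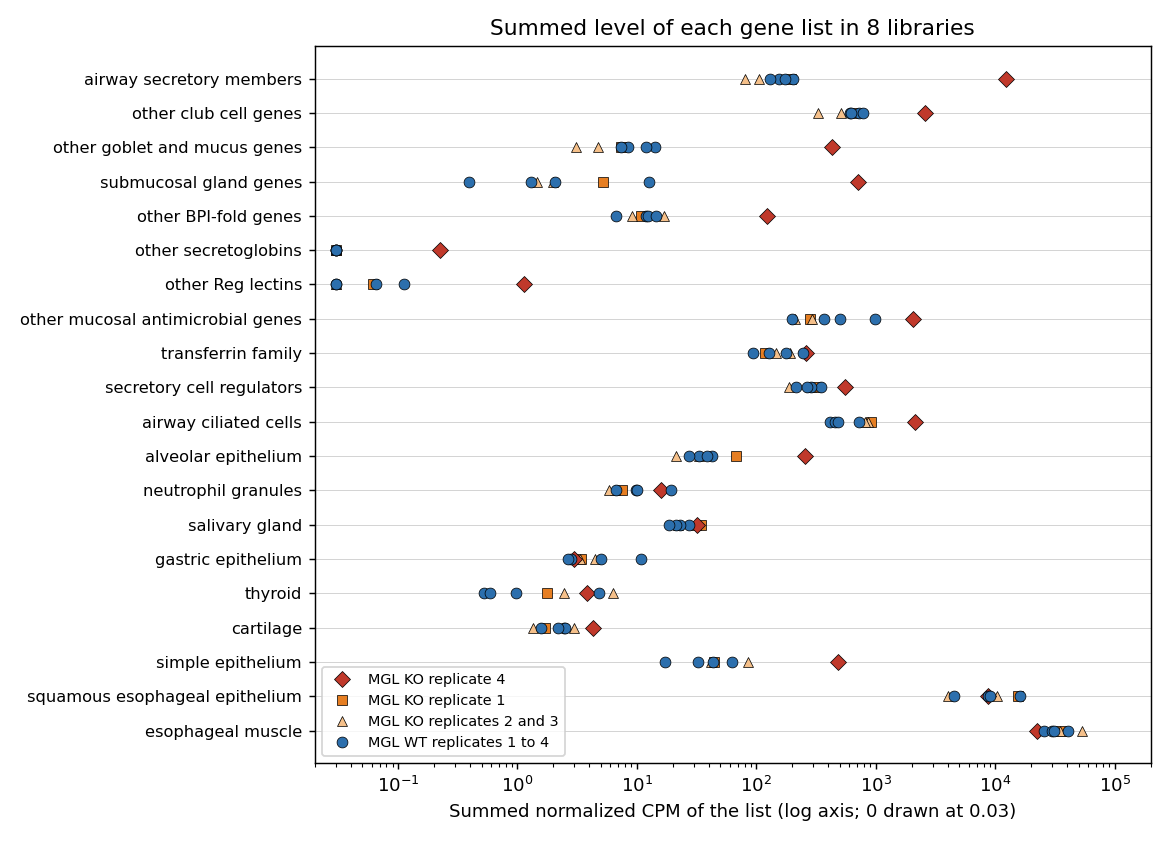
Summed normalized CPM (log axis, 0 drawn at 0.03) of the secretory genes and of 19 lists of related genes and cell type markers, with 1 point per library. MGL KO replicate 4 lies apart for the secretory, goblet, gland, BPI-fold and simple epithelial lists and among or near the other libraries for the neutrophil, salivary, gastric, thyroid, squamous and muscle lists.

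Some genes listed for club cells were well counted in every library, as Cyp2f2 was. This held also in the libraries other than MGL KO replicates 1 and 4, where Scgb1a1 had 0 to 1.88 CPM. Which cells expressed them there was not tested. Cbr2, a carbonyl reductase of club cells, had 131, 69.0, 94.1 and 1325 CPM in MGL KO replicates 1 to 4 and 160, 178, 211 and 205 CPM in WT replicates 1 to 4. Selenbp1, a selenium-binding protein, had 124, 60.1, 100.2 and 267 CPM in the MGL KO and 134, 156, 135 and 156 CPM in the WT libraries. For Cyp2f2, Cbr2 and Selenbp1, MGL KO replicates 1 to 3 all lay below all WT libraries while MGL KO replicate 4 lay above them, and this held for 3 of the 10 club cell genes tested. Of all genes tested without MGL KO replicate 4, 5.81% had the other 3 MGL KO libraries below all WT libraries, and these genes were singled out after their values were seen. In that fit the log2 fold change was -0.94 (standard error 0.22) for Cbr2 and -0.61 (0.22) for Selenbp1, with adjusted p of 0.345 and 0.519 from edgeR's quasi-likelihood test, so neither passed 0.05. Gsto1, at 324, 169, 219 and 689 CPM in the MGL KO and 211 to 300 CPM in the WT libraries, and Fmo2, at 29.1 to 88.1 CPM and 53.6 to 110 CPM, overlapped between the groups.

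**Figure D4:**
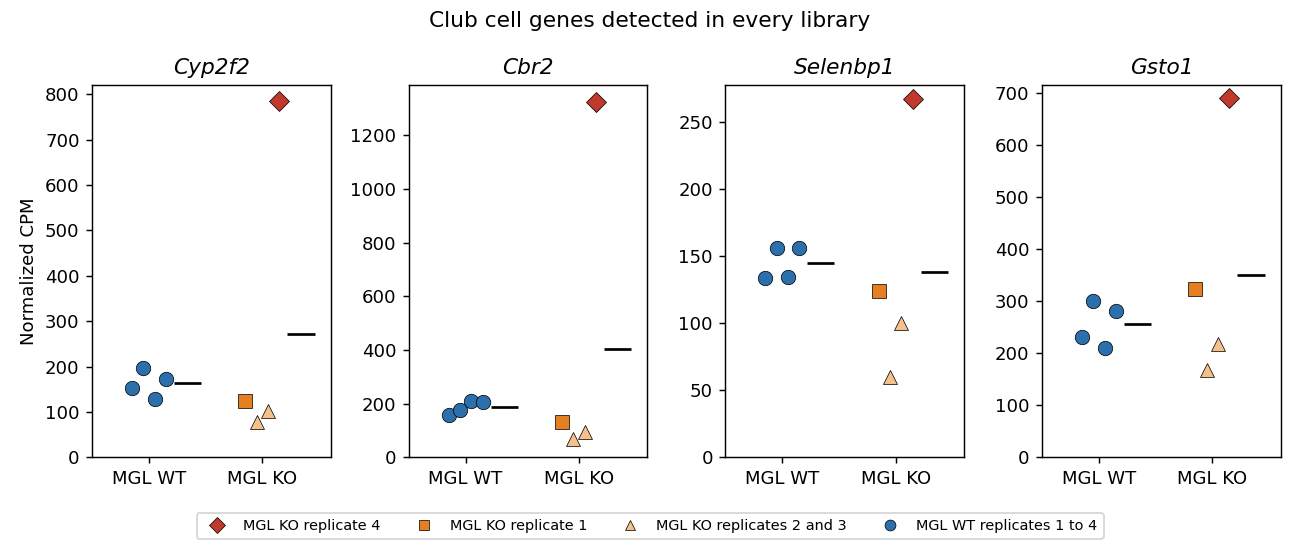
Normalized CPM of Cyp2f2, Cbr2, Selenbp1 and Gsto1, genes listed for club cells and counted in all libraries, with 1 point per library and a bar for the mean of each group of 4. MGL KO replicate 4 is highest in all 4 panels, and in the panels of Cyp2f2, Cbr2 and Selenbp1 the other 3 MGL KO libraries lie below all WT libraries.

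The genes whose levels ran most like Ltf over the 8 libraries came from the same 2 libraries. By Pearson's r of log2(CPM + 0.5) among genes with at least 20 counts in MGL KO replicate 4, the 10 nearest non-members were Nkx2-1 (r = 0.993), Sfta3-ps, Sftpd, Sftpa1, Cfap44, Sec14l3, Srsf10, Cfap65, 1700016K19Rik and Abcc8 (r = 0.984). The 8 points share their libraries, 1 library sets most of the range, and with Spearman's rho in place of r 1 of these 10 genes was among the nearest 10. Srsf10, a splicing factor gene, was of a different kind, with 109 CPM in MGL KO replicate 4 and 69.4 to 82.8 CPM elsewhere. Among the members, r with Ltf was 0.991 for Bpifb1, 0.990 for Reg3g and Bpifa1, and 0.800 for Cyp2f2.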

How the data were processed

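Esophagus RNA of 4 MGL KO and 4 WT libraries was selected for poly(A) tails and sequenced on Illumina NovaSeq instruments. The authors checked reads with FastQC 0.11.9, trimmed adapters with cutadapt, aligned them to GRCm39 with STAR 2.7.10b and deposited unnormalized whole-number counts per gene symbol. The counting tool, the annotation and the use of strand are not given in the sources used here. Groups and replicate numbers came from the labels, and 0 columns of other samples were present.

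Genes were kept by filterByExpr of edgeR 4.0.16 (R 4.3.3) at a minimum count of 10, and normalized CPM were computed with TMM factors, also for genes not kept. The groups were compared with the quasi-likelihood test of edgeR, with adjustment after Benjamini and Hochberg over 14864 genes, and standard errors were derived from each F statistic. The exact test of edgeR, named in the paper's methods, served as an alternative beside DESeq2 1.42.0, limma-voom with quality weights (limma 3.58.1), other scalings and filters, a replicate block, and each library left out. The tests were tested on simulated data. Gene positions and promoters came from GENCODE M39 on GRCm39.

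The members and the gene lists were chosen with earlier results of these data known. Named were all 10 members, Mgll, up to 4 genes of each list by highest CPM in any library, any listed gene past the threshold, and the 10 genes most like Ltf. Others are said to be chosen after their values were seen, or are neighbours within 100 kb. The remaining list totals were 2584 CPM in MGL KO replicate 4 against 331 to 778 CPM for the other club cell genes, 122 against 6.71 to 16.8 CPM for the other BPI-fold genes, 261 against 93.3 to 248 CPM for the transferrin family, 556 against 187 to 351 CPM for the secretory cell regulators and 481 against 17.2 to 84.5 CPM for simple epithelium. The total count was 13479069 to 17090152 per library, and no pair of replicates agreed within sampling noise.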

Additional observations from a re-analysis of the deposited data

Results flagged for a closer look

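In a group of 4 libraries, the highest or lowest library was taken as apart where its gap to the nearest other library exceeded Dixon's 95% critical value. This was asked of 60 groups, of which 25 had a library apart, 21 of them MGL KO replicate 4. Chance flags about 1 in 20 independent groups, but the groups here share the same 8 libraries and the members were chosen by these levels, so the number is not read against that rate. No cause was tested.

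For the members, MGL KO replicate 4 lay apart from the other MGL KO libraries for all 10, at 1973 CPM for Ltf, 2222 for Scgb1a1, 1047 for Scgb3a1, 620 for Scgb3a2, 2568 for Bpifa1, 1254 for Bpifb1, 1295 for Reg3g, 590 for Muc5b, 88.7 for Tff2 and 785 for Cyp2f2. Their sum was 12442.5 CPM, against 196 CPM in the nearest MGL KO library. The members were chosen by these levels, so these flags are a description and not a test.

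The same library was apart in summed CPM for other club cell genes (2584), other goblet and mucus genes (433), submucosal gland genes (716), other BPI-fold genes (122) and other mucosal antimicrobial genes (2056). It was also apart for airway ciliated cells (2120), simple epithelium (481) and neutrophil granules, at 16.1 against 7.47 CPM in the nearest MGL KO library. At very low levels it was apart for the other secretoglobins, at 0.225 CPM, and the other Reg lectins, at 1.12 CPM.

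Among the WT libraries, replicate 2 was apart for Scgb3a2, at 0.285 CPM or 5 counts against 0, and replicate 1 for Reg3g, at 0.112 CPM or 2 counts. WT replicate 1 was also apart for the summed gland genes, at 12.6 against 2.05 CPM in the nearest WT library, of which Bhlha15 gave 9.20, and for the thyroid genes, at 4.80 against 0.970 CPM.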

How the results depend on the processing

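The main test called 7 genes. This count was 64 in the exact test on filtered genes, 42 in the exact test without the filter, 137 in DESeq2, 25 in limma-voom, 2 without a filter, 2 to 5 with each library left out and 4 without MGL KO replicates 1 and 4 (added after the data were seen). Of the members, 1, Ltf, was called in both exact tests, with adjusted p of 0.024 and 0.0442 from edgeR. No member was called in the other settings. Of these, DESeq2 gave none of the 3 tested members a p-value. With at least 10 counts asked of every library, Cyp2f2 was the only member tested. Of the listed genes, 1 was called in both exact tests and 2 in DESeq2. The log2 fold change of Cyp2f2 was reversed in limma-voom (-0.32), with the replicate block (-0.00277), without MGL KO replicate 4 (-0.68, the same with no filter) and without MGL KO replicates 1 and 4 (-0.84), and that of Scgb1a1 in the last (-0.36). With each library left out, it ranged from -0.68 to 1.05 for Cyp2f2 and from 3.38 to 11.35 for Scgb1a1, and from 2.98 to 9.79 for Ltf, each lowest without MGL KO replicate 4. Ltf fell from 9.37 to 4.23 in limma-voom and 4.2 with the replicate block, and Scgb1a1 from 9.75 to 3.75 and 6.26. The cause was not tested beyond the libraries named. The summed level in MGL KO replicate 4 was 13842.5 CPM by library size alone and 12373.9 CPM with RLE factors, and of the 10 genes most like Ltf, 8 were shared with a pseudocount of 1 and 1 with Spearman's rho.

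The replicate numbers did not pair the samples: the correlation of deviations of same-numbered libraries was -0.14, -0.28, -0.14 and 0.08. With the number as a block, 2 genes and 0 members were called.

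The depth allows no statement on levels under 0.167 to 0.271 CPM, and for Bpifa1 and Reg3g the 6 libraries other than MGL KO replicates 1 and 4 had 3 counts or fewer. With 4 libraries a group and 1 library apart, group means of the members describe that library.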

Other observations

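Genes of 2 further groups were looked at after their values were seen, without a test. Of 10 genes of heart muscle, 5 had at least 10 CPM and 10 times their level elsewhere in MGL KO replicate 4, among them Myh6, the atrial and adult ventricular myosin heavy chain of the mouse, at 1170 CPM against at most 9.06 CPM, and Myl7, the atrial light chain, at 187 CPM against at most 3.42 CPM. Myh6 had 2.45 CPM in MGL KO replicate 1, below MGL KO replicate 2 at 7.49 CPM and WT replicate 4 at 9.06 CPM. Actc1 and Sln, which skeletal muscle also expresses, had 1485 and 909 CPM in MGL KO replicate 4, within the range of the other libraries.

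Igha, the heavy chain of immunoglobulin A, had 437 CPM in MGL KO replicate 4 and 22.5 CPM in MGL KO replicate 1, with 14.3 CPM in WT replicate 1 and at most 3.08 CPM in the others. It was the 1 of 5 genes of plasma cells that make this immunoglobulin that was highest in MGL KO replicate 4. The other 4 were highest in WT replicate 1, among them Derl3 at 41.8 against 4.05 CPM in MGL KO replicate 4. Jchain, the joining chain, had 704 CPM in WT replicate 1 against 182 CPM in MGL KO replicate 4. Pigr, the receptor for their product, was at 542 CPM in MGL KO replicate 4 and 0.502 CPM in WT replicate 1.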
